A study of Gallus gallus with 12 samples.

Results

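Among the 16930 long non-coding RNAs (lncRNAs) quantified in the chicken liver, 49 (0.289%) were highest in the juvenile period. These lncRNAs were chosen by their FPKM, the number of fragments set against the length of the transcript and the size of the library. Their mean of log2(FPKM + 1) over the 3 juvenile livers exceeded that of each later stage by at least the log2 of 1.5 (to 3 decimals). This is a 1.5-fold step in FPKM + 1, not in FPKM. They also had an FPKM above 0 in at least 1 liver of a later stage. The values of the juvenile stage against the other stages chose the lncRNAs, so these values are given as a description and without a test. The lncRNAs carry assembly identifiers (TCONS numbers) without gene names.

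The livers came from healthy female chickens of Luhua, an indigenous Chinese breed, with 3 birds at each of 4 stages. These were the juvenile period (JP, day 60), the sexual maturity period (SM, day 133), the peak laying period (PL, day 220) and the broodiness period (BP, day 400). Each library holds the RNA of a piece of whole liver of 1 hen, depleted of ribosomal RNA and sequenced with strand information. In such tissue, fewer cells of a type and less RNA per cell cannot be told apart. Markers of liver cells could not be checked, because 0 of the 18260 mRNA identifiers could be paired with a symbol.

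LncRNAs are transcripts that lack a recognisable protein-coding region. Some act near their own site of transcription, by recruiting chromatin proteins or through transcription itself, and others act as scaffolds or bind microRNAs elsewhere in the cell. They are known for low expression and for expression restricted to a tissue or a stage. In the hen, the liver takes over the synthesis of yolk precursors when oestrogen rises at sexual maturity, and the juvenile liver precedes this task. No role is known here for any of the 49 lncRNAs.

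The libraries fall into 2 sets by the sum of FPKM over all lncRNAs, which spanned 3106 to 3985 for the 6 JP and PL livers and 7070 to 8583 for the 6 SM and BP livers. The sum over mRNAs divided the same sets, at 408296 to 539529 and 688208 to 772041. By the mapped share of reads that the authors list, every JP and PL library was above every SM and BP library. Whole stages lie on each side, so a difference between stages and a difference between libraries cannot be told apart between JP and SM or BP, whereas JP and PL lie on the same side. A median ratio of each liver to the geometric mean of all livers was taken over the 2576 lncRNAs above 0 in every liver. It was 0.712 to 0.828 for JP and 0.619 to 0.941 for PL. For SM it was 1.34 to 1.68 and for BP 1.23 to 1.46. On the log2(FPKM + 1) scale, where the added 1 shrinks differences at low FPKM, all tested lncRNAs together were only slightly lower at JP across the division between the 2 sets. The median JP minus SM difference of the 6254 lncRNAs that had an FPKM above 0.1 in at least 3 livers was -0.13 on the log2(FPKM + 1) scale, that of JP minus BP was -0.12, and that of JP minus PL was 0. Over the 49 juvenile lncRNAs the median JP minus SM difference was 0.88, JP minus PL 1.02 and JP minus BP 0.93. When the livers were scaled by their median ratio over mRNAs, the medians of all lncRNAs became -0.08 for JP minus SM, -0.09 for JP minus BP and -0.01 for JP minus PL. The JP mean stayed above that of each other stage for all 49. The rule had chosen them on this contrast, so nothing is read from that count.

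Most of the 49 were lncRNAs of low level. The mean FPKM over the JP livers was at least 10 for 5 of them, between 1 and 10 for 36, and under 1 for 8, with a range of 0.539 to 44.4. The median of the stage means was 1.66 FPKM at JP, against 0.256 at SM, 0.208 at PL and 0.182 FPKM at BP. An FPKM above 0 was found in all 3 JP livers for 41, in 2 JP livers for 6 and in 1 JP liver for 2. In the 9 later livers, 12 lncRNAs were above 0 in every liver, 29 in 2 to 8 livers, and 8 in 1 liver only. A JP liver held 44 to 47 of the 49 above 0, against 25 to 36 in a later liver. Over all lncRNAs of the table, 39.3% to 54.6% were above 0 in a liver. The rule required a value above 0 in at least 1 later liver, so nothing is read from the counts there.

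The summed FPKM of the 49 lncRNAs was 315 in JP replicate 1, 239 in JP replicate 2 and 197 in JP replicate 3. It reached at most 50.2 in the SM livers, lay between 22.4 and 40.1 in the PL livers and between 37.9 and 59.7 in the BP livers. As a share of all lncRNA FPKM of a liver, these lncRNAs made up 5.34% to 8.06% in the JP livers and 0.467% to 1.13% in the 9 later livers, where the highest shares were those of PL. The JP and PL livers had a lower summed FPKM over all lncRNAs than the SM and BP livers, which raises their shares. The rule fixed the excess at JP. What it left free was which JP liver was the highest. This was replicate 1 for 19 lncRNAs, replicate 2 for 19 and replicate 3 for 11.

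**Figure D1:**
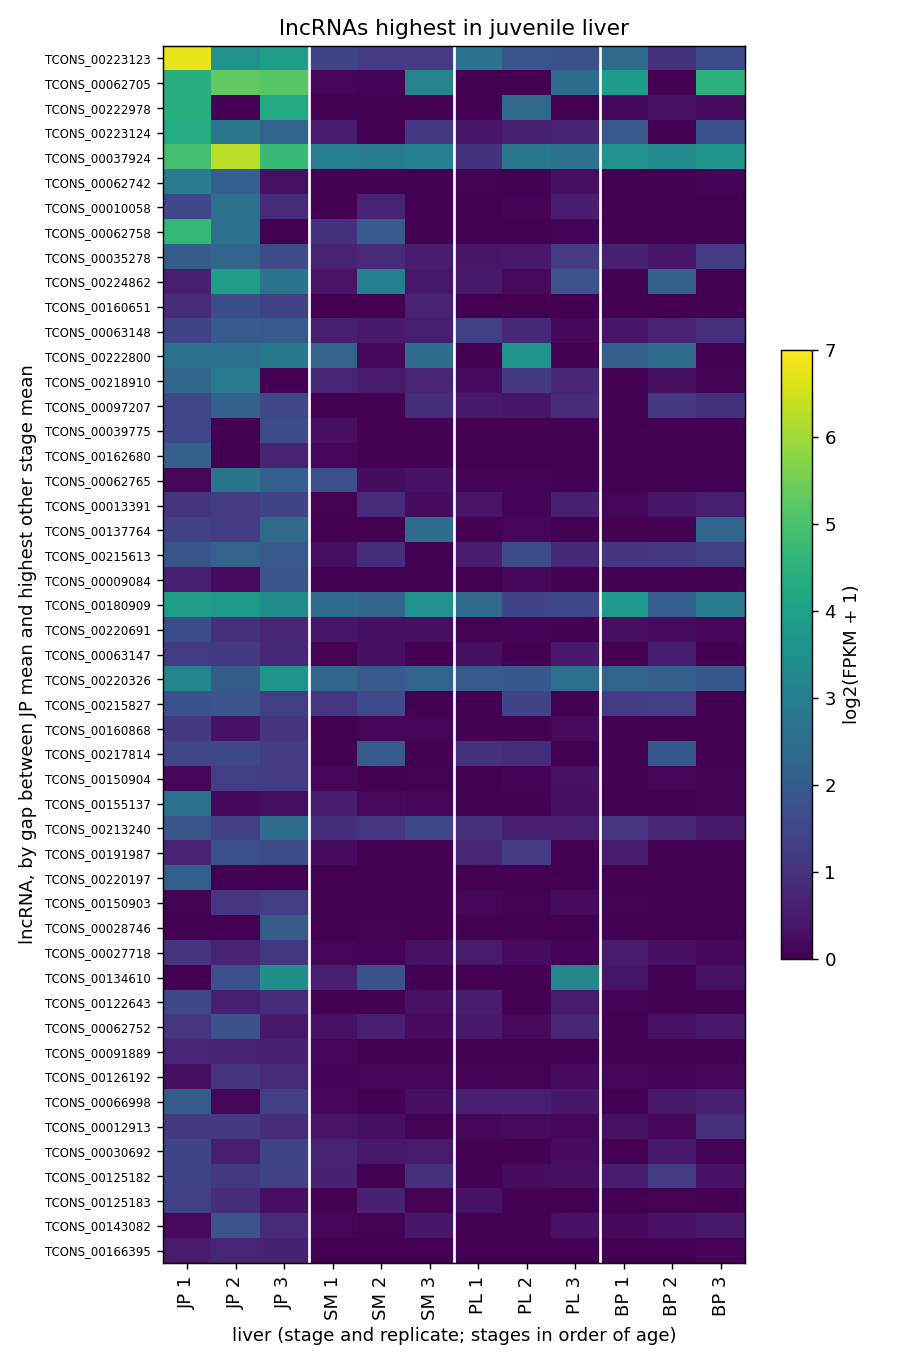
Log2(FPKM + 1) of the 49 lncRNAs (rows, ordered by the gap between the JP mean and the highest other stage mean) in the 12 livers (columns, 3 for each stage in order of age). The JP columns are brighter than the later columns in most rows, but the median value in a JP liver (1.33 to 1.49) is low on the colour scale. In 8 rows at least 1 JP liver is listed at 0, and single later livers are as bright as the JP livers in some rows.

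The gap between the JP mean and the highest other stage mean had a median of 0.80 and ranged from 0.60 to 2.68. It reached 1, a 2-fold step in FPKM + 1, for 14 lncRNAs and 2 for 3. The gap is not a fold change of mean FPKM. TCONS_00222800, with a gap of 1.04, had a JP mean 1.44-fold the PL mean in FPKM. For TCONS_00166395, with a gap of 0.60, the JP mean was 40.8-fold a BP mean of only 0.0132 FPKM. Just inside the threshold stood TCONS_00166395 with a gap of 0.60, TCONS_00143082 with 0.60 and TCONS_00125183 with 0.61. Just outside it stood TCONS_00032328 and TCONS_00222991, each with a gap of 0.58, and TCONS_00083972 with 0.57. The values on both sides lay so close that the limit of the set is one of convention. The stage with the second highest mean was SM for 23 lncRNAs, PL for 14 and BP for 12.

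The rule concerned stage means, and it did not require the livers to be separate. All 3 JP livers lay above all 9 later livers for 20 of the 49. Over all 16930 lncRNAs this was so for 0.602%. Since the rule used this contrast, nothing is read from that share. In the other 29 lncRNAs at least 1 later liver was above the lowest JP liver, and in 3 of these a later liver was above all JP livers. The 20 lncRNAs without overlap are described first, by the 10 with the largest gap.

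TCONS_00223123 had the largest gap of the 49. By mean FPKM it was also the highest at JP, through JP replicate 1, which held 81.0% of its JP sum, whereas by mean log2(FPKM + 1) it was the third. Its FPKM was 108, 11.0 and 14.3 in JP replicates 1, 2 and 3, against 1.74, 1.35 and 1.32 at SM, 5.10, 2.65 and 2.39 at PL, and 4.35, 1.05 and 1.95 in the BP livers. JP replicate 1 stood far above the other JP livers, and the lowest JP liver was still above the highest PL liver. On the log2(FPKM + 1) scale the JP mean was 4.76 ± 1.74 and the highest later mean, that of PL, 2.08 ± 0.46 (SD, n = 3 livers each), and the gap of 2.68 fell to 1.68 in the stage means without JP replicate 1.

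The study counted TCONS_00037924 among its differentially expressed lncRNAs and also assayed it by qPCR. For the assayed transcripts as a group, its text reports that qPCR and sequencing matched at most stages. It also states that all genes but FGB peaked at PL by both methods, without saying whether this covers the lncRNAs. The mean FPKM of TCONS_00037924 was lowest at PL. Its qPCR values by stage appear only in a figure of the study and were not compared here. In the FPKM values, TCONS_00037924 had the highest mean log2(FPKM + 1) at JP and the second highest mean FPKM. It had 29.4, 76.5 and 25.3 FPKM in the JP livers, against 6.92, 6.45 and 7.21 at SM, 1.05, 5.88 and 5.25 at PL, and 10.7, 9.19 and 11.9 in the BP livers. The later stages were tight except for PL replicate 1, which was the lowest of the 12 livers, and JP replicate 2 was the highest. On the log2(FPKM + 1) scale the JP mean was 5.31 ± 0.85, against 2.97 ± 0.07 for SM, 2.15 ± 0.97 for PL and 3.53 ± 0.17 for BP (SD, n = 3 livers each), which left a gap of 1.78 to BP. In FPKM the JP mean was 4.13-fold that of BP, and 2.58-fold without JP replicate 2.

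Low in all later livers were TCONS_00062742, TCONS_00010058 and TCONS_00160651. TCONS_00062742 had 6.83, 3.30 and 0.233 FPKM at JP, was listed at 0 in all SM livers and reached at most 0.192 at PL and 0.0459 at BP. TCONS_00010058 had 1.86, 5.003 and 0.826 FPKM at JP, at most 0.590 at SM and 0.479 at PL, and was listed at 0 in all BP livers. TCONS_00160651 had 0.796, 2.24 and 1.56 FPKM at JP and was listed at 0 in all later livers but SM replicate 3, with 0.586. In TCONS_00062742 the lowest JP liver was close to the highest PL liver, so that its separation rests on a small margin.

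In 3 others the later livers reached higher values, though below every JP liver. TCONS_00035278 had 3.21, 3.84 and 2.12 FPKM in the JP livers, against 0.623, 0.823 and 0.441 at SM, 0.303, 0.386 and 1.38 at PL, and 0.561, 0.330 and 1.31 in the BP livers, with a gap of 1.24. TCONS_00013391 had 1.10, 1.33 and 1.76 FPKM at JP, at most 0.808 at SM, 0.523 at PL and 0.502 at BP, with a gap of 0.87. TCONS_00097207 had 1.80, 3.39 and 1.82 FPKM at JP, was listed at 0 in 3 later livers and reached 1.27 in BP replicate 2. In these lncRNAs the later stages overlapped one another.

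**Figure D2:**
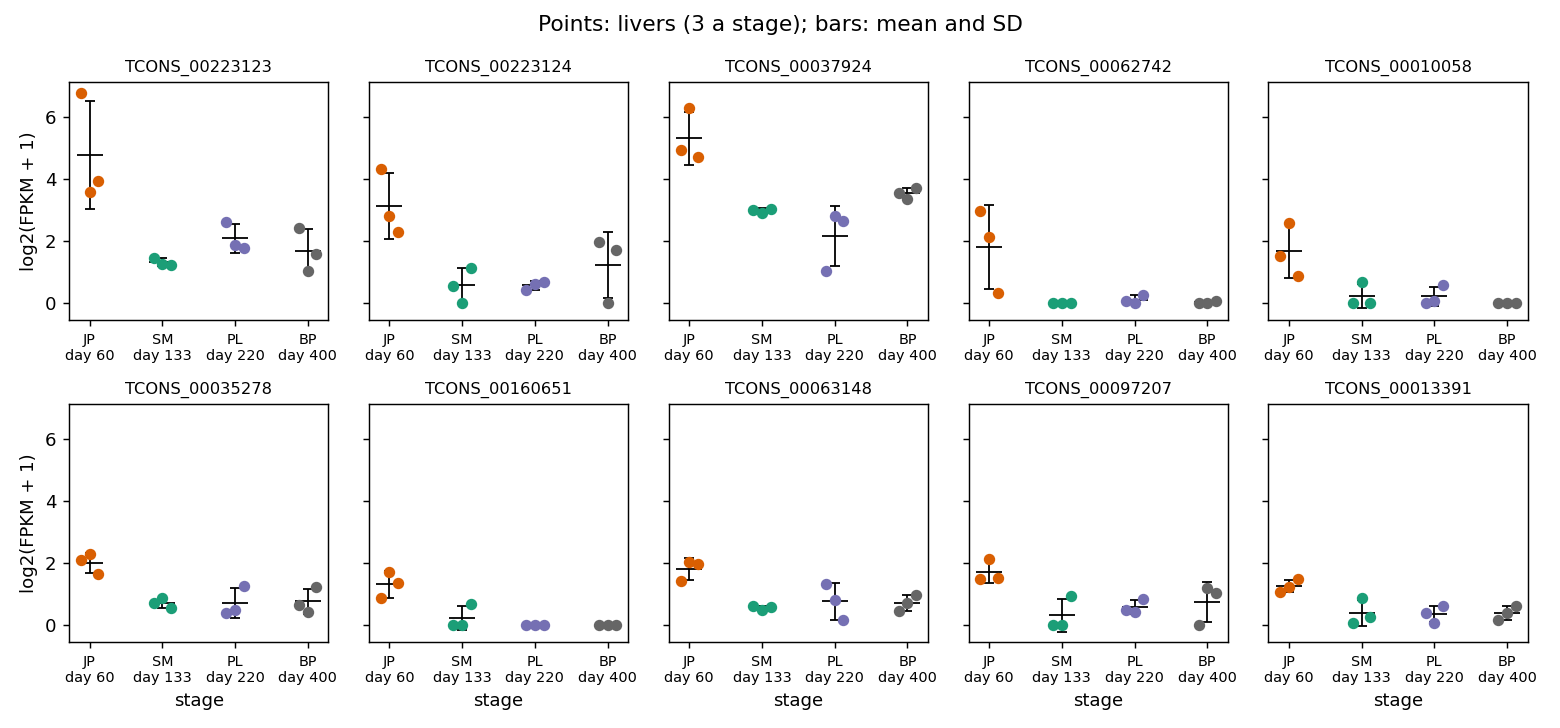
Log2(FPKM + 1) of 10 lncRNAs in each liver (points) by stage, with the mean and SD of the 3 livers. These are the 10 with the largest gaps among the 20 whose JP livers lie above all later livers. The JP points of TCONS_00223123 and TCONS_00062742 spread widely, those of TCONS_00035278 and TCONS_00013391 do not.

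The remaining 10 lncRNAs without overlap had gaps of 0.60 to 0.83 and JP means of 0.539 to 3.03 FPKM. TCONS_00215613 was the most abundant of them, with 2.55, 3.64 and 2.89 FPKM at JP. It had 0.208, 0.885 and 0 FPKM at SM, 0.449, 2.06 and 0.750 at PL, and 1.06, 1.21 and 1.5 in the BP livers. It was thus present in 8 of the 9 later livers. TCONS_00166395 was the least abundant, with 0.410, 0.643 and 0.565 FPKM at JP and a value above 0 in a single later liver, 0.0397 in BP replicate 3.

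Of the 5 lncRNAs with the highest mean FPKM at JP, the JP livers overlapped the later livers in 3. TCONS_00062705 was high at JP in all 3 livers (20.4, 38.5 and 35.4 FPKM) and divided within every later stage. It had 0.0752, 0.0424 and 7.82 FPKM at SM, 0, 0 and 4.597 at PL, and 13.6, 0 and 21.5 in the BP livers. BP replicate 3 was above JP replicate 1, while BP replicate 2 was listed at 0. TCONS_00222978 had 20.1 and 18.3 FPKM in JP replicates 1 and 3 but was listed at 0 in JP replicate 2, and outside JP it exceeded 1 only in PL replicate 2, with 4.36. TCONS_00180909 was the steadiest of the abundant lncRNAs at JP, with 13.8, 13.2 and 10.03 FPKM. SM replicate 3 with 10.7 and BP replicate 1 with 12.7 FPKM came within the JP range, and the other SM and BP livers lay between 3.28 and 6.34. Its JP mean was 1.66-fold the BP mean in FPKM.

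Among lncRNAs above 1 FPKM in each JP liver, the 5 with the smallest coefficient of variation at JP (0.126 to 0.184) were TCONS_00222800, TCONS_00180909, TCONS_00217814, TCONS_00125182 and TCONS_00215613. TCONS_00222800 had 5.17, 4.86 and 6.16 FPKM in the JP livers, against 3.76, 0.120 and 4.54 at SM, 0, 11.3 and 0 at PL, and 3.37, 4.71 and 0 in the BP livers. Here PL replicate 2 was the highest of the 12 livers, and 3 later livers were listed at 0. TCONS_00217814 showed the same kind of pattern, with 1.83, 1.86 and 1.34 FPKM at JP, 2.87 in SM replicate 2 and 2.74 in BP replicate 2, and 0 in 5 of the other 7 later livers. In both lncRNAs the JP livers were even and the later livers were divided, with some listed at 0 and at least 1 above all JP livers. The third lncRNA with a later liver above all JP livers was TCONS_00137764, with 1.60, 1.36 and 4.40 FPKM at JP, 4.80 in SM replicate 3 and 3.86 in BP replicate 3. It was listed at 0 in 6 later livers and reached 0.0651 in PL replicate 2.

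Some lncRNAs, picked after their values were seen, kept a substantial level after the juvenile period. TCONS_00220326 had 7.86, 3.22 and 11.7 FPKM at JP and between 2.78 and 4.84 FPKM in every later liver, and JP replicate 2 lay within that range. TCONS_00213240 had 2.65, 1.52 and 4.72 FPKM at JP and 0.391 to 1.87 later, where SM replicate 3 was above JP replicate 2. Both were present in all 12 livers, and in both a low JP replicate 2 was the JP liver that overlapped. TCONS_00224862 had 0.517, 13.9 and 5.45 FPKM at JP and was also uneven later, with 7.05 in SM replicate 2, 2.45 in PL replicate 3 and 3.45 in BP replicate 2 and at most 0.380 in the other 6 later livers. TCONS_00218910 had 3.94 and 6.27 FPKM in JP replicates 1 and 2, was listed at 0 in JP replicate 3 and reached 1.24 in PL replicate 2. Low throughout the later stages were TCONS_00220691, with 2.23, 0.945 and 0.675 FPKM at JP and at most 0.328 later, and TCONS_00126192, with 0.224, 1.07 and 0.812 at JP and at most 0.150 later.

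By contrast, some of the 49 depended on a single juvenile hen. The highest JP liver held more than 50% of the summed JP FPKM in 29 lncRNAs and more than 75% in 8, and the median share was 52.4%. TCONS_00220197 was found at JP in replicate 1 only, with 3.23 FPKM, and TCONS_00028746 in replicate 3 only, with 3.16. TCONS_00155137 had 5.21, 0.110 and 0.190 FPKM at JP, so that JP replicate 1 held 94.6%. SM replicate 1, with 0.446 FPKM, was above the other JP livers. TCONS_00162680 had 3.44, 0 and 0.625 FPKM and TCONS_00062758 had 24.3, 5.14 and 0 FPKM at JP, with 84.6% and 82.5% in replicate 1.

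Stage means were therefore taken again without each JP liver. The gap stayed at or above the threshold whichever JP liver was left out for 21 of the 49 lncRNAs (42.9%), and 14 of these also had no overlap. Of the 21, 17 also kept it whichever later liver was left out. The other 4 were TCONS_00222800 (0.31 without SM replicate 2), TCONS_00215827 (0.34 without SM replicate 3), TCONS_00180909 (0.40 without BP replicate 2) and TCONS_00217814 (0.44 without SM replicate 1). Without 1 JP liver it fell between 0 and the threshold for 24 of the 49, and to 0 or below for 4, namely TCONS_00220197, TCONS_00028746, TCONS_00155137 and TCONS_00134610. Among the 29 lncRNAs with more than 50% of the JP FPKM in 1 liver, 7 kept the gap, against 14 of the other 20. Both measures come from the same JP values, so this contrast is partly built in and nothing is read from it. When the rule was applied afresh to all lncRNAs without JP replicate 1, 2 or 3, it found 58, 56 and 52 lncRNAs, of which 38, 37 and 35 were among the 49. The number without overlap between JP and later livers was 30, 36 and 34 with 2 JP livers, against 20 with all 3. With fewer JP livers this condition is easier to meet, so nothing is read from the rise.

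**Figure D3:**
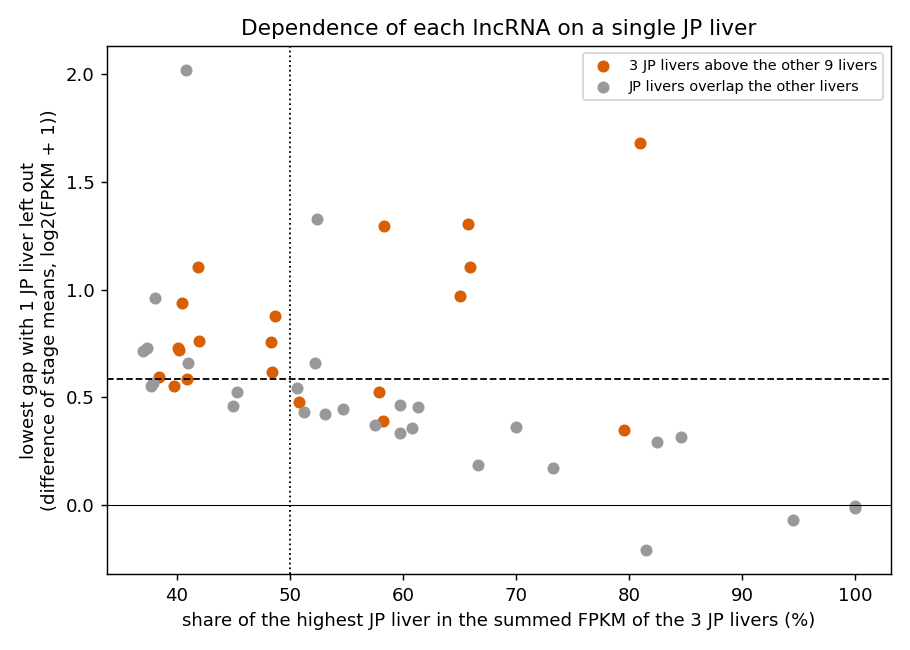
For each of the 49 lncRNAs, the share of the highest JP liver in the summed FPKM of the JP livers (x axis, %) and the lowest gap when 1 JP liver is left out (y axis, log2(FPKM + 1) scale). The dashed line is the threshold of the rule, the log2 of 1.5, and the dotted line marks 50%. Orange points are the 20 lncRNAs without overlap. At shares above 50%, 7 of 29 lncRNAs lie at or above the dashed line. Both axes use the same JP values, so a lower gap at a higher share is partly built in.

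Close identifier numbers of the assembly may belong to transcripts of 1 locus, which can share reads. Whether the numbers follow the order of positions in the genome was not checked here. Among the 49, 8 lncRNAs formed 4 pairs of consecutive numbers. TCONS_00223124, next to TCONS_00223123, had 18.7, 5.94 and 3.81 FPKM at JP and between 0 and 2.90 in later livers, and both were highest in JP replicate 1. TCONS_00150903 and TCONS_00150904 were low in JP replicate 1 (0.0213 and 0.0946 FPKM) and between 1.15 and 1.44 in JP replicates 2 and 3. TCONS_00063147 and TCONS_00063148 had JP means of 1.10 and 2.56 FPKM, each without overlap with the later livers. In TCONS_00125182 and TCONS_00125183 the JP livers differed, since the lowest JP liver was replicate 2 for TCONS_00125182 and replicate 3, with 0.230 FPKM, for TCONS_00125183. Whether the members of a pair share a locus was not tested. A further 5 of the 49 had numbers from TCONS_00062705 to TCONS_00062765, a stretch that was noticed after the values were seen and that holds 20 lncRNAs of the table.

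For 47 of the 49, the table held other lncRNAs with a number at most 5 away, 130 different ones that were not among the 49. Of these neighbours 43.1% had a JP mean above that of each other stage, against 15.2% of all lncRNAs of the table. The neighbours stand beside lncRNAs chosen on this contrast and may share reads with them. The share over all lncRNAs also includes many listed at 0 in the JP livers, so nothing is read from the difference. Neighbours chosen after their values were seen show both cases. TCONS_00180908, next to TCONS_00180909, had 1.76, 1.95 and 1.10 FPKM at JP and 0.165 to 1.42 later, a gap of 0.53. TCONS_00039773 lies near TCONS_00039775, and had 1.02, 0.254 and 0.698 FPKM at JP and at most 0.177 later. The opposite was found beside TCONS_00062742, where TCONS_00062741 had 0.425, 0 and 0 FPKM at JP and 5.90, 17.3 and 4.24 at SM, and TCONS_00062745 was listed at 0 in all JP livers and had 6.09, 5.22 and 6.60 FPKM at SM. When the FPKM of a lncRNA and of its neighbours were summed, 34 of these 47 still met the threshold, and the sum was not highest at JP for 5. These 5 were TCONS_00012913, TCONS_00062742, TCONS_00134610, TCONS_00137764 and TCONS_00215827.

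The comparisons among SM, PL and BP were not themselves used by the rule and were tested. The rule still held every later stage mean at least the log2 of 1.5 below the JP mean, and log2(FPKM + 1) cannot fall below 0. A lncRNA with a low JP mean therefore could not change 1.5-fold between later stages on this scale, and its lack of a call was fixed in advance. Only for the others do the comparisons address whether lncRNAs highest in juvenile liver still changed between the later stages. None of the 46 that could be tested was called. All 12 livers entered 1 limma fit of log2(FPKM + 1) over the 6254 lncRNAs with an FPKM above 0.1 in at least 3 livers, and a call needed a Benjamini-Hochberg adjusted p under 0.05 and a change of at least 1.5-fold. The 3 lncRNAs not tested, TCONS_00028746, TCONS_00162680 and TCONS_00220197, did not pass this filter. The filter counts all 12 livers, so high JP livers could help a lncRNA to pass it. Of the 46, 32 were above 0.1 FPKM in at least 3 later livers and 14 in fewer, of which 2 in none. These 14 passed only with their JP livers, and a low level later leaves little room for a call, so a count of 0 is not read as steadiness.

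For PL minus SM, 0 of 46 were called higher at PL and 0 lower, where the background over all lncRNAs tested was 1.54% higher and 9.87% lower. For BP minus SM, 0 were called in either direction, beside a background of 0.528% higher and 0.815% lower at BP. For BP minus PL, 0 were called in either direction, beside 6.32% higher and 0.768% lower at BP. At an unadjusted p under 0.05, the limma fit gave 1 of the 46 for PL minus SM (34.4% of all lncRNAs tested), 1 for BP minus SM (14.8% of all) and 2 for BP minus PL (29.0% of all). The fit also takes in the spread of the JP livers, with a median SD of 0.54 on the log2(FPKM + 1) scale for the 46, against 0.10 over all lncRNAs tested. The rule chose the 46 by their JP values, and all lncRNAs tested were not matched to them for JP level. This contrast is therefore partly built in and is not read as a trait of the 46. A fit to the 9 later livers alone, added after the data had been seen, tested the 32 among 5714 lncRNAs. It again called 0 in each comparison and direction, beside 1.35% higher and 9.84% lower over all for PL minus SM, 0.350% and 0.613% for BP minus SM, and 5.44% and 0.525% for BP minus PL. At an unadjusted p under 0.05 it gave 4 of the 32 for PL minus SM (12.5%, against 34.0% of all), 4 for BP minus SM (12.5%, against 13.4%) and 3 for BP minus PL (9.38%, against 27.2%). The differences between these shares were not tested.

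The 4 comparisons of a lncRNA with an unadjusted p under 0.05 in the fit of all livers were as follows. TCONS_00037924 had a log2 fold change of 1.37 for BP minus PL (standard error 0.48, adjusted p = 0.0864 from limma), with all 3 BP livers above all PL livers. TCONS_00180909 had 1.12 in the same comparison (standard error 0.46, adjusted p = 0.133 from limma), with BP replicate 2 below PL replicate 1. TCONS_00215613 had 0.77 for BP minus SM (standard error 0.29, adjusted p = 0.213 from limma) and no overlap between these stages. TCONS_00030692 had 0, 0 and 0.157 FPKM at PL, against 0.597, 0.379 and 0.409 at SM, without overlap, and differed by -0.47 for PL minus SM on the log2 scale (standard error 0.22, adjusted p = 0.143 from limma). None of these passed the threshold. The changes are of FPKM + 1 and understate those of low lncRNAs. In the fit to later livers alone, the adjusted p from limma was 0.0741 for TCONS_00037924 in BP minus PL. In PL minus SM it was 0.0452 for TCONS_00030692 and 0.0280 for TCONS_00220691, whose changes of -0.47 and -0.29 stayed under 1.5-fold on this scale. The SM means of these lncRNAs, 0.54 and 0.33 log2(FPKM + 1), were below the log2 of 1.5, so a 1.5-fold fall was not possible on it. Other settings called 4 of the 49. With 0.1 in place of 1 before the logarithm, TCONS_00030692 and TCONS_00220691 were called lower at PL than at SM, with an adjusted p of 0.0394 and 0.0232 from limma. TCONS_00037924 was called higher at BP than at PL among lncRNAs above 1 FPKM in at least 3 livers (adjusted p = 0.0407 from limma), and TCONS_00062705 without BP replicate 2, the BP liver in which it was listed at 0 (adjusted p = 0.0487 from limma).

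Absence of calls does not show that the later stages were alike. In the fit to later livers alone, the median standard error of the 32 was 0.27, against 0.14 over all lncRNAs tested. In that fit, a difference of at least 1.5-fold in either direction was estimated for 6 of the 32 in PL minus SM (18.8%, against 16.8% of all). For BP minus SM it was 4 (12.5%, against 5.69%) and for BP minus PL 6 (18.8%, against 13.1%). The estimates of the 32 ranged from -0.97 to 0.81 in PL minus SM, from -0.77 to 1.68 in BP minus SM and from -0.82 to 1.96 in BP minus PL.

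The median log2 fold change of the 46 was -0.02 for PL minus SM, against -0.14 over all lncRNAs tested, and 41.3% and 25.2% were above 0. For BP minus PL the medians were -0.01 and 0.12, with 41.3% and 72.8% above 0, and for BP minus SM they were -0.01 and -0.02, with 45.7% and 44.4%. PL minus SM and BP minus PL cross the division of the libraries. Since 14 of the 46 were at or near 0 in most later livers, a median near 0 is partly built in, and nothing is read from it. Over the 32 lncRNAs in the fit to later livers the medians were -0.02 for PL minus SM, 0.07 for BP minus SM and 0.04 for BP minus PL, against -0.15, -0.02 and 0.13 over all lncRNAs tested there. The split of calls over all lncRNAs depended on scaling. With median ratios over mRNAs it was 117 higher and 273 lower for PL minus SM, in place of 96 and 617, 24 and 26 for BP minus SM, in place of 33 and 51, and 233 and 71 for BP minus PL, in place of 395 and 48, and none of the juvenile lncRNAs was called. With median ratios over lncRNAs it was 165 higher and 131 lower for PL minus SM, 17 and 15 for BP minus SM and 104 and 114 for BP minus PL, again with none of the juvenile lncRNAs called.

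**Figure D4:**
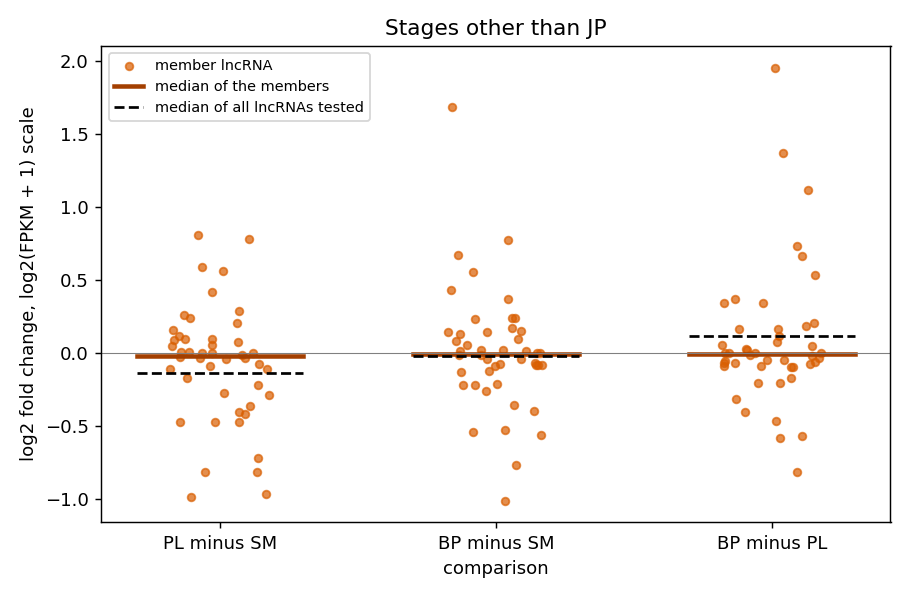
Log2 fold changes of the 46 tested lncRNAs (points) in the comparisons among SM, PL and BP, on the log2(FPKM + 1) scale. Solid lines are the medians of the 46 and dashed lines those of all 6254 lncRNAs tested. The medians of the 46, of which 14 were above 0.1 FPKM in fewer than 3 later livers, lie between -0.02 and -0.01, while those of all lncRNAs lie at -0.14 for PL minus SM and 0.12 for BP minus PL.

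The same rule was applied to the other stages for scale. It was met by 49 lncRNAs for JP, 129 for SM, 105 for PL and 81 for BP, so that JP had the smallest number. In at least 1 of the 4 stages, 2347 lncRNAs had a mean at or above the log2 of 1.5, without which no stage can meet the rule. The numbers correspond to 2.09%, 5.496%, 4.47% and 3.45% of these 2347. How many could meet the rule for a given stage was not counted. Of the mRNAs, 503 met it for JP, 469 for SM, 343 for PL and 189 for BP, where JP had the largest number. With median-ratio scaling over lncRNAs, 106 lncRNAs met the rule for JP, and the other stages were not counted again on that scale. The livers of the stage lay above all others for 40.8% of the lncRNAs highest at JP, against 55.0% for SM, 33.3% for PL and 44.4% for BP, and for 83.1% of the mRNAs highest at JP. A single liver held more than 50% of the stage's FPKM in 59.2% of the lncRNAs highest at JP, against 36.4% for SM, 78.1% for PL and 39.5% for BP, and in 8.75% of the mRNAs highest at JP. Each set was chosen by the contrast that the shares without overlap describe. Over all lncRNAs that share was counted for JP only (0.602%). Nothing is read from the differences between stages or tables, and these shares were not tested against each other.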

How the data were processed

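Liver RNA of 12 hens was sequenced in ribosomal RNA-depleted, strand-specific libraries with paired ends. The authors mapped filtered reads to Gallus gallus-5.0 with HISAT2 2.1.0, assembled and quantified transcripts with StringTie 1.3.3, removed transcripts with coding potential, and deposited FPKM values of lncRNAs and mRNAs in separate tables, with 1 column a liver. All columns were matched to livers by name (0 left out). FPKM alone does not give the number of fragments behind a value, so no counting interval is given. By the read numbers that the authors list, every JP library had more filtered reads than any later library. A value of 0 may be a transcript that the assembly did not quantify in that liver. Positions and sequences of the lncRNAs were not analysed here.

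The 49 lncRNAs, the tests and the rule for named lncRNAs were chosen with earlier results of these data known. Named were the 10 largest gaps without overlap of JP and later livers, the 5 highest JP means, the 5 highest shares of 1 JP liver, the 5 smallest coefficients of variation at JP, up to 5 called in each direction in each comparison among SM, PL and BP (none was), 3 on each side of the threshold, and lncRNAs with consecutive identifiers (3 runs were to be named, and 4 of equal length were). Others were named after their values were seen.

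The comparisons among SM, PL and BP were fitted on log2(FPKM + 1) by limma 3.58.1 under R 4.3.3, with 1 mean for each stage, 8 residual degrees of freedom and moderation with a trend. A count model was not applied to FPKM. For any single lncRNA, 3 livers against 3 allow no two-sided exact permutation p below 0.1. The fit was tested on simulated data, where changes were added only to lncRNAs with a mean log2(FPKM + 1) above 1. Most of the juvenile lncRNAs were lower than this in the later stages, so that test does not show which changes could be detected in them. Other steps used Python 3.11.15 with pandas 2.3.3 and matplotlib 3.10.9. Alternatives were an added value of 0.1, no filter, a stricter filter (3 livers with an FPKM above 1), scaling by median ratios over lncRNAs or mRNAs, no trend, fits to pairs of stages, a block for the replicate number, a gap of 1, lncRNAs at 0 outside JP kept, and leaving out each liver. Sums over neighbouring identifiers, the gap kept without each JP liver or each liver, and a fit to the SM, PL and BP livers alone were added after the data had been seen.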

Additional observations from a re-analysis of the deposited data

How the results depend on the processing

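The number of lncRNAs highest at JP depended most on the value added before the logarithm. With 0.1 in place of 1 it was 349, with median-ratio scaling over lncRNAs 106, with a gap of at least 1 it was 14, and 21 kept the gap without each JP liver, and 17 without each of the 12 livers, counts chosen after seeing the data. All 49 were among the 349 and the 106. The number without overlap of JP and later livers was 74 with 0.1, 55 with scaling over lncRNAs and 8 with the gap of 1. With each liver left out, the first number lay between 45 and 58 and the second between 20 and 36. Leaving out a liver makes the absence of overlap easier to meet. Scaling over mRNAs gave 64 and 25.

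In the comparisons among SM, PL and BP, 0 of the 49 were called under all alternatives but 3. With 0.1 added, 2 were called lower at PL than at SM, TCONS_00030692 and TCONS_00220691. Under the stricter filter 1 was called higher at BP than at PL, TCONS_00037924, and without BP replicate 2 also 1, TCONS_00062705, so that counts without a liver lay between 0 and 1. With the replicate number as a block, 0 were called in all 3 comparisons. Same-numbered livers are different hens, and the correlation of their deviations ranged from -0.06 to 0.09, with 3 of 12 livers correlating best with their own number, so the numbers do not pair them. Over all lncRNAs, calls ranged from 296 to 1440 for PL minus SM (713 as reported), from 8 to 141 for BP minus SM (84) and from 210 to 939 for BP minus PL (443), with 8 from the fit of the 6 livers of BP and SM alone. Of the 420 gaps recomputed for 28 named lncRNAs, 29 were below the threshold of the rule and 3 of these at 0 or below. Which differences could be detected in these lncRNAs, at low FPKM and with 3 livers a stage, was not tested.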

Other observations

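A further 6 lncRNAs exceeded each later stage mean by the log2 of 1.5 and were listed at 0 in all 9 livers outside JP, which kept them out of the 49. Each was above 0 in 1 JP liver only. TCONS_00083978 had 6.82 FPKM, TCONS_00221594 6.35, TCONS_00112101 4.58 and TCONS_00123000 2.52, all in JP replicate 1. TCONS_00220362 had 7.96 FPKM and TCONS_00151500 3.84, both in JP replicate 3. No lncRNA that was above 0 in all 3 JP livers met the gap and was listed at 0 in all later livers.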
